A study of Rattus norvegicus with 8 samples.

Results

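Bile acid synthesis and conjugation was followed through 10 genes, chosen by name from the known pathway and found in the gene name column of a rat expression array. All 10 genes had a probe, 1 probe each, among the 19716 genes named on the array. The arrays, read in 1 colour (Cy3), held liver RNA of 8 male F344 (Fisher) rats aged 18 weeks, with 1 rat for each array. The 4 furan rats had received furan, a liver toxicant and carcinogen of rodents, by gavage for 90 days (8 mg/kg, dosed 5 days weekly), and their livers were taken 24 hours after the last dose. The 4 control rats were of the same strain, sex and age. Whether they were dosed by gavage, and with what, is not given in the sources used here. RNA came from whole liver, so that fewer cells of a type and less RNA per cell cannot be told apart. The comparison asks what repeated furan dosing did to the liver genes that turn cholesterol into conjugated bile acids.

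Bile acids are made from cholesterol in hepatocytes by a classical and an alternative route. The classical route starts in the endoplasmic reticulum with Cyp7a1, the rate-limiting cholesterol 7-alpha-hydroxylase, and uses Cyp8b1, the sterol 12-alpha-hydroxylase that directs the product towards cholic acid. The alternative route starts with Cyp27a1, the mitochondrial sterol hydroxylase that acts on the side chain, and uses Cyp7b1, an oxysterol 7-alpha-hydroxylase. Both routes share Hsd3b7 and Akr1d1, which rework the steroid ring, and the racemase Amacr, which acts on the side chain. Cyp27a1 also serves the classical route at a later step. Slc27a5, the bile acyl-CoA synthetase, and Baat, the amino acid N-acyltransferase, then join the bile acid to taurine or glycine. Nr0b2 (the receptor SHP) is induced through the bile acid receptor FXR and represses Cyp7a1 and Cyp8b1, which closes a feedback loop.

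Each level comes from a 60-base probe printed on the array. No other probe of the array shared a run of 25 identical bases with any of the 10. The probes of the classical enzyme Cyp8b1 and the alternative enzyme Cyp27a1 are shown because the results turn on this pair, which had like mean changes but very unlike spreads between control rats. No bases are marked.
Cyp8b1: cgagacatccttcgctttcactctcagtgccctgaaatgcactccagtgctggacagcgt
Cyp27a1: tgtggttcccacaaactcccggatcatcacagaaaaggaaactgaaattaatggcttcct
The Cyp8b1 probe lies on chromosome 8 from 127019903 to 127019962 and the Cyp27a1 probe on chromosome 9 from 74067772 to 74067831, in the rn4 build of the array annotation. The strand that the order of these coordinates gives differed from the strand of the gene in GRCr8 for 3 of 7 genes compared (Cyp8b1, Slc27a5 and Nr0b2), and which strand these probes read was not tested. On that build the Cyp7a1 probe spans 19707410 to 19707469 on chromosome 5, and the Slc27a5 probe spans 72935145 to 72935204 on chromosome 1.

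Over 20268 tested probes, 6 of the 10 genes fell in furan livers, none rose and 4 were not called (limma, Benjamini-Hochberg adjusted p below 0.05 over all tested probes). Among all tested probes, 33.8% were called, 16.9% as lower and 16.9% as higher. The 6 that fell were Cyp27a1, Hsd3b7, Akr1d1, Amacr, Slc27a5 and Baat, which are the alternative-route entry enzyme, the shared enzymes and both conjugating enzymes. For the same 6 genes the 4 furan values all lay below the 4 control values, a separation downward that 18% of all tested probes showed (18.4% upward, 36.4% in all). The genes not called were Cyp7a1, Cyp8b1, Cyp7b1 and Nr0b2. The median log2 change of the 10 was -0.76, against -0.03 over all tested probes. These changes are relative to the 75th percentile of each array. That percentile was higher on the furan arrays (1256 to 1596 intensity units) than on the control arrays (827 to 1057), and without any scaling between arrays 1 of the 10 genes, Slc27a5, had groups that did not overlap and a called fall.

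**Figure D1:**
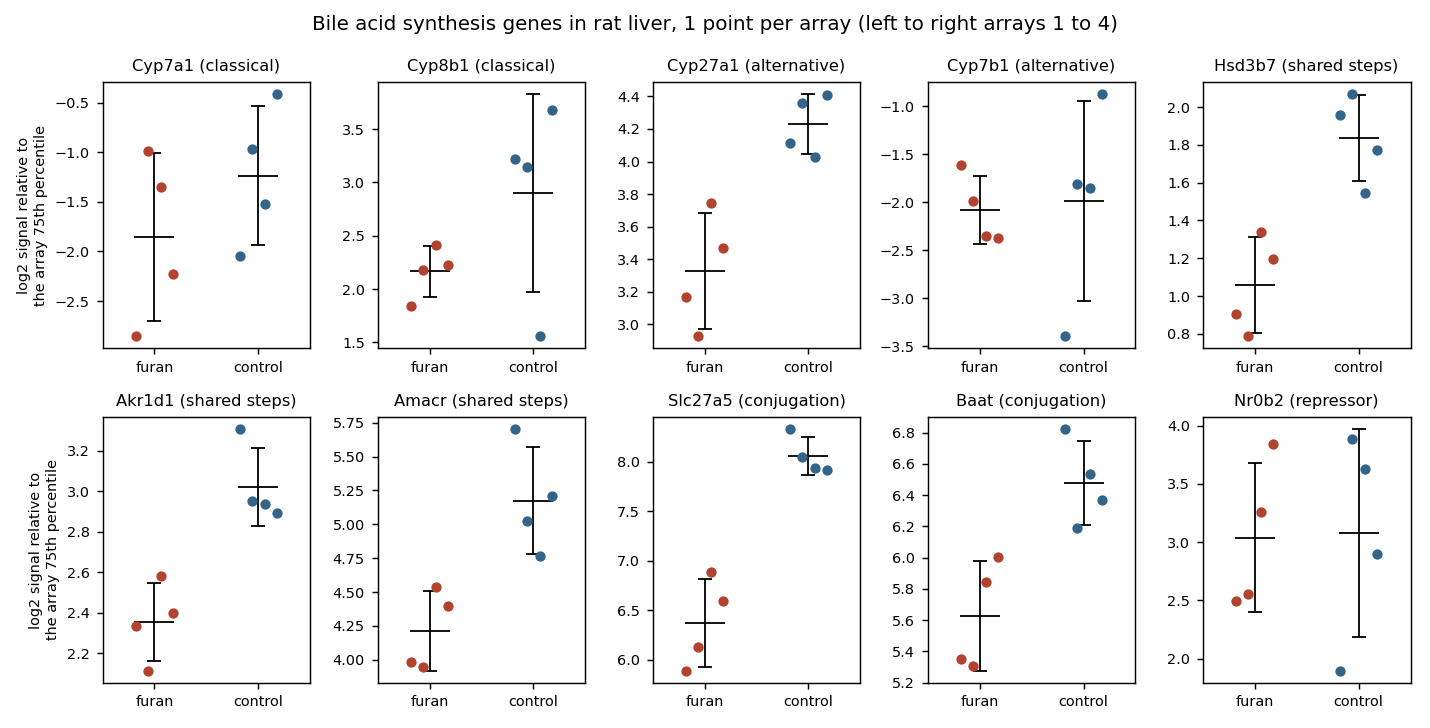
Level of each of the 10 genes on each array, as log2 signal relative to the array's 75th percentile, with a panel per gene on its own scale, furan left of control, points for arrays 1 to 4 from left to right, and bars for the mean and SD (n = 4). The groups separate for Cyp27a1, Hsd3b7, Akr1d1, Amacr, Slc27a5 and Baat and overlap for Cyp7a1, Cyp8b1, Cyp7b1 and Nr0b2.

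Of the conjugating enzymes, Slc27a5 had the largest fall of the 10 genes, while Baat fell less than Amacr and Cyp27a1. Slc27a5 had levels of 5.89, 6.13, 6.88 and 6.59 on furan arrays 1 to 4, against 8.33, 8.05, 7.94 and 7.92 on control arrays 1 to 4. Every furan value lay more than a full log2 unit below the lowest control value. The mean was 6.37 ± 0.45 in furan livers and 8.06 ± 0.19 in control livers (SD, n = 4 each). This is a log2 change of -1.68 ± 0.22 SE (95% interval from -2.19 to -1.18, limma adjusted p = 0.00158), or 3.21-fold lower. Only 0.666% of tested probes had a more negative change. The unscaled processed signal of this probe was 88088, 111758, 171856 and 121100 intensity units in furan livers, against 266073, 257756, 259637 and 237420 in control livers.

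Baat, which performs the last step, had levels of 5.35, 5.31, 5.84 and 6.0 on the furan arrays, against 6.82, 6.19, 6.54 and 6.37 on the control arrays. The groups came close, with furan 4 only just below control 2. Its log2 change was -0.85 ± 0.20 SE (limma adjusted p = 0.0140), 1.81-fold lower, against 3.21-fold for Slc27a5.

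The enzymes shared by both routes all fell. Amacr had levels of 3.98, 3.95, 4.54 and 4.39 in furan livers, against 5.70, 5.02, 4.76 and 5.21 in control livers, a log2 change of -0.96 ± 0.22 SE (limma adjusted p = 0.0129). Hsd3b7, the first enzyme after 7-alpha-hydroxylation, had 0.90, 0.79, 1.34 and 1.19 in furan livers, against 1.96, 2.07, 1.55 and 1.77 in control livers, a log2 change of -0.78 ± 0.17 SE (limma adjusted p = 0.00884). Akr1d1, the 5-beta-reductase that gives bile acids their bent ring, had 2.34, 2.11, 2.58 and 2.40 in furan livers, against 3.31, 2.95, 2.94 and 2.89 in control livers, a log2 change of -0.67 ± 0.14 SE (limma adjusted p = 0.00876). In each of these 3 genes furan 3 was the highest furan array and furan 2 the lowest.

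In the alternative route the entry enzyme fell and the second enzyme was not called. Cyp27a1 had levels of 3.17, 2.93, 3.75 and 3.47 in furan livers, against 4.11, 4.36, 4.03 and 4.41 in control livers. The control values were narrow (SD 0.18) and all lay above the furan values (SD 0.36). The log2 change was -0.90 ± 0.19 SE (95% interval from -1.33 to -0.47, limma adjusted p = 0.00834), 1.86-fold lower. Cyp7b1 had levels of -1.61, -1.99, -2.35 and -2.37 in furan livers, against -3.39, -1.81, -1.85 and -0.88 in control livers. All 4 furan values lay within the range of the control values, which ran over more than 2 log2 units between control 1 and control 4. The log2 change was -0.10 ± 0.47 SE (95% interval from -1.18 to 0.98, limma adjusted p = 0.896). That interval holds a fall or a rise of close to 1 log2 unit, so a change of that size was not detectable with these arrays. The change was -0.57 without control 1 (limma adjusted p = 0.184), and it turned positive without control 4 (0.27) or furan 4 (0.0010).

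In the classical route neither enzyme was called. Cyp7a1 had levels of -2.85, -0.98, -1.36 and -2.23 in furan livers, against -2.05, -0.96, -1.52 and -0.42 in control livers. Furan 1 and furan 4 lay below all control values, while furan 2 and furan 3 lay among them. The log2 change was -0.62 ± 0.47 SE (95% interval from -1.69 to 0.46, limma adjusted p = 0.343). It ran from -0.91 without furan 2 to -0.29 without furan 1, and was not called in either case. Cyp8b1 had levels of 1.84, 2.18, 2.42 and 2.22 in furan livers, against 3.22, 3.14, 1.56 and 3.68 in control livers. The furan livers were tightly grouped (SD 0.24), and 3 of the control livers lay above all of them, but control 3 lay below all of them. The log2 change was -0.73 ± 0.41 SE (95% interval from -1.68 to 0.21, limma adjusted p = 0.200). Without control 3 it was -1.18 and called (limma adjusted p = 0.00772; over all alternatives from 0.00772 to 0.826), so this array decides whether Cyp8b1 counts among the genes that fell.

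The repressor Nr0b2 was not called either. Its levels were 2.49, 2.56, 3.26 and 3.84 in furan livers, against 1.90, 3.89, 3.63 and 2.89 in control livers. The furan values lay inside the control range, whose lowest value was again control 1. The log2 change was -0.04 ± 0.47 SE (95% interval from -1.11 to 1.04, limma adjusted p = 0.958).

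**Figure D2:**
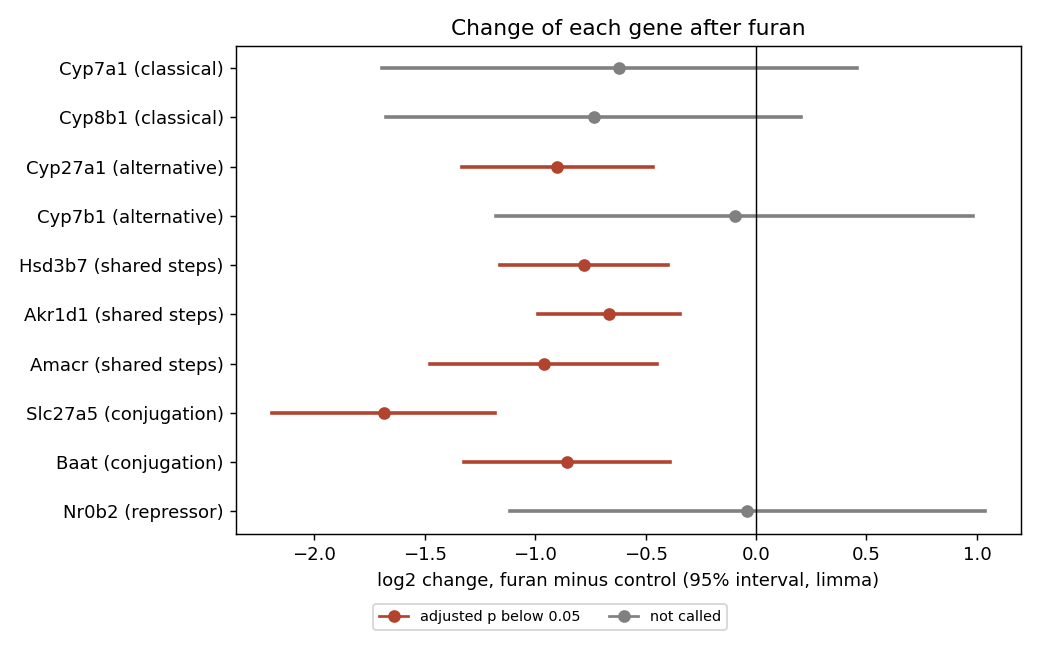
Log2 change of each gene in furan against control livers (horizontal axis), with genes ordered by their place in the pathway and lines for limma's 95% intervals. The 6 called genes have changes from -0.67 for Akr1d1 to -1.68 for Slc27a5, with narrow intervals below 0. The 4 genes not called have intervals that span 0.

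The 4 genes not called were those with the widest spread between control arrays, and 2 of them, Cyp7b1 and Nr0b2, also had the smallest mean changes. Between control livers the SD was 0.70 for Cyp7a1, 0.92 for Cyp8b1, 1.04 for Cyp7b1 and 0.89 for Nr0b2, against 0.18 to 0.40 for the 6 genes that fell. The mean change of Cyp8b1 (-0.73) was larger than that of Akr1d1 (-0.67), which was called. With 1 array for each rat, differences between rats and between RNA preparations, labellings or hybridisations cannot be told apart. Cyp7a1 and Cyp7b1 were each printed in 10 spots, and the SD between the spots of an array had a median of 0.058 for Cyp7a1 (at most 0.34) and 0.085 for Cyp7b1 (at most 0.18), which covers printing and scanning only. The 10 genes were well above background on all 8 arrays, and none was saturated.

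Whether the routes changed unequally was tested on the log2 ratio of a classical to an alternative enzyme within each array, which does not depend on the scaling of the array. For Cyp7a1 to Cyp27a1 the ratio was -6.02, -3.91, -5.10 and -5.70 in furan livers, against -6.16, -5.32, -5.55 and -4.83 in control livers. The groups overlapped, and the difference between their means was 0.28 (exact two-sided permutation test, p = 0.657). For Cyp8b1 to Cyp27a1 it was -1.33, -0.75, -1.33 and -1.25 in furan livers, against -0.89, -1.22, -2.47 and -0.73 in control livers, a difference of 0.16 (exact two-sided permutation test, p = 0.857). The ratio of Cyp7a1 to Cyp7b1, the pair of 7-alpha-hydroxylases, averaged 0.23 ± 1.06 in furan livers and 0.75 ± 0.46 in control livers (SD, n = 4 each, difference -0.52, exact permutation p = 0.457). The ratio of Cyp8b1 to Cyp7b1 averaged 4.25 ± 0.59 in furan livers and 4.88 ± 1.33 in control livers (SD, n = 4 each, difference -0.64, exact permutation p = 0.457). None of the 4 pairs passed (adjusted over the 4 pairs, exact permutation p = 0.857 for each, where the smallest p that 4 against 4 arrays can give is 0.0286). Adjusted over the pairs that smallest p becomes 0.114 for a pair on its own, so no single pair could have passed. Groups overlapped in every pair, and unequal changes of the routes were not detectable beyond the spread between rats.

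**Figure D3:**
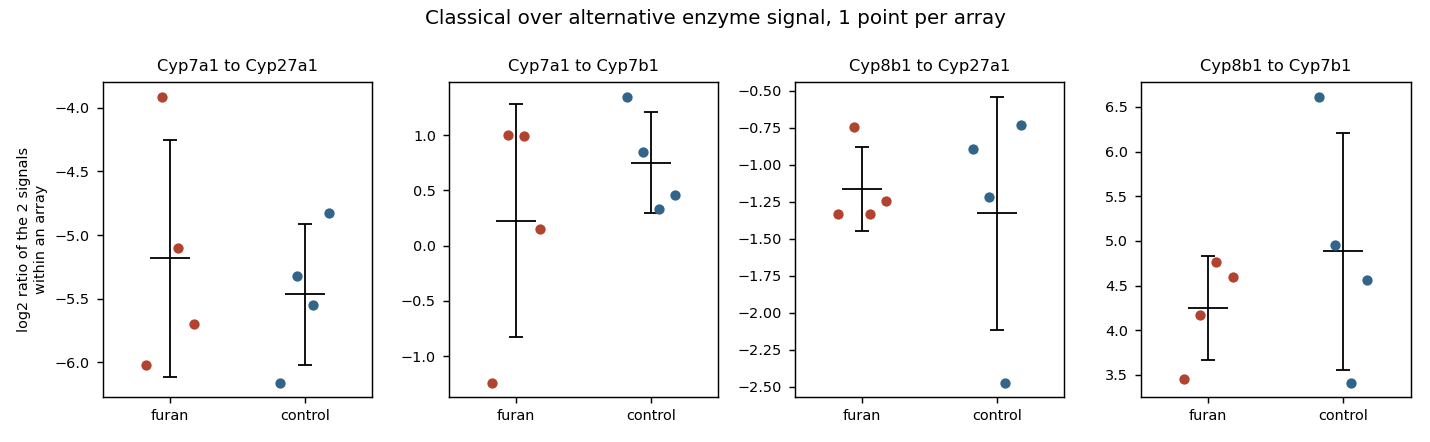
Log2 ratio of a classical to an alternative enzyme's signal within each array (vertical axis, own scale per panel), furan left of control, points for arrays 1 to 4 from left to right, bars for mean and SD (n = 4). The groups overlap in all 4 panels, and control 3 stands low for Cyp8b1 to Cyp27a1 (-2.47).

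Hepatocytes carry this pathway, and general hepatocyte markers were lower too. The summed level of 10 hepatocyte markers, in units of the array's 75th percentile, was 1394 to 1778 on the furan arrays, against 2331 to 2785 on the control arrays. Of the 10 markers 9 fell and none rose, beside 16.9% of all tested probes called lower and 16.9% called higher. Their median log2 change was -0.75, beside -0.76 for the bile acid genes. This likeness held with array median scaling (-0.82 for the markers, -0.83 for the bile acid genes) and with normexp background correction (-0.75 and -0.73). It did not hold with quantile normalization, where 4 of the markers fell (median -0.12). The bile acid genes there had a median of -0.72 and 6 called lower, while 3613 of all 20268 tested probes were called lower. That method gives equal ranks equal values on all arrays, and these markers are bright (control means 6.73 to 8.55, but 1.87 for F9). The fall of the bright Slc27a5 also shrank with it, from -1.68 to -1.24. Whether the bile acid genes as a set fell beyond the markers was not tested. With no scaling 3 markers fell (median -0.16), where 584 of all 20268 tested probes were called lower. The bile acid genes also had a median of -0.16 without scaling. Albumin (Alb) was not called (log2 change -0.36, limma adjusted p = 0.134), and transthyretin (Ttr) fell by 0.71 on the log2 scale. With each array scaled to the mean log2 level of these 10 markers, chosen after seeing the data, 1 of the 10 bile acid genes was called. Of all 20268 tested probes, 301 were called lower and 13832 higher with this scaling. Slc27a5 remained lower by that scale (log2 change -0.85, limma adjusted p = 0.00229). Baat (-0.02), Cyp27a1 (-0.07), Amacr (-0.13), Hsd3b7 (0.05) and Akr1d1 (0.16) were not called, while the median of all tested probes stood at 0.80 on that scale. The part of the hepatocyte markers in the falls was not tested.

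**Figure D4:**
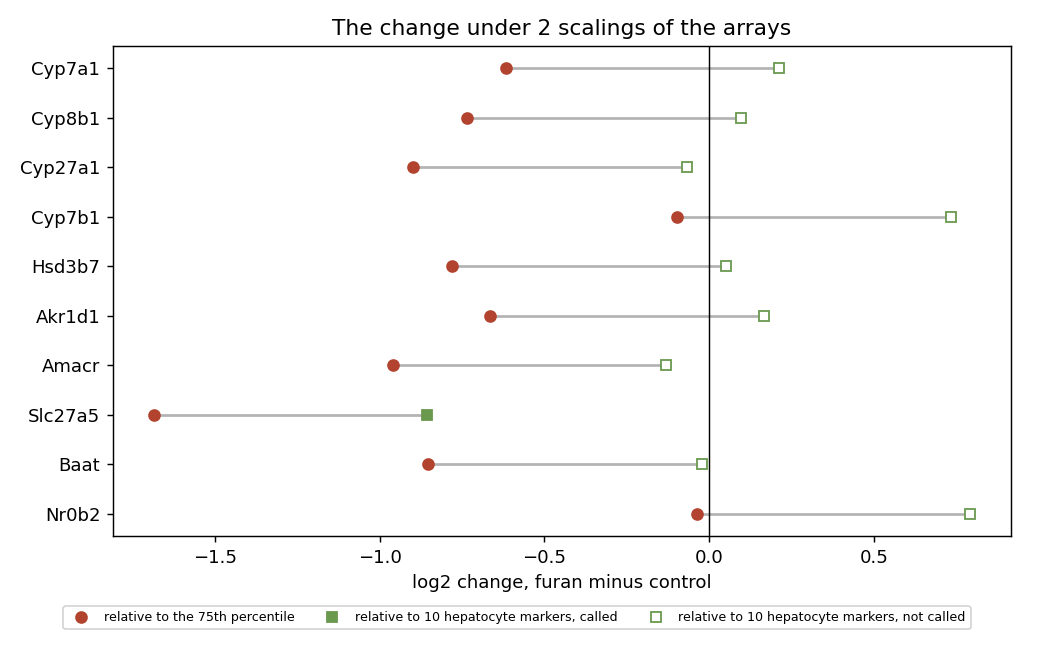
Log2 change of each gene, furan minus control, relative to the array's 75th percentile (circles) and relative to 10 hepatocyte markers (squares, filled where limma called the change). Slc27a5 is the only gene still called on the second scale, at -0.85 against -1.68, and the other 9 squares are open, from -0.13 for Amacr to 0.79 for Nr0b2.

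Markers of other cells included some that separated the groups and some that stood high on single arrays. The summed level of 9 tested biliary markers was 9.76, 3.78, 1.75 and 1.49 on furan arrays 1 to 4, against 0.75, 5.48, 1.16 and 0.81 on control arrays 1 to 4. Of them 3 rose and 6 were not called (median log2 change 1.54), beside 16.9% of all tested probes called higher. Those that rose were Epcam (1.79), Cldn7 (1.54) and Sox9 (0.48), whose groups did not overlap. Krt19 (0.72) and Krt7 (-0.76, the 1 negative change among the 9) were not called. The sum was thus highest on furan 1 and control 2, and with these arrays left out the same count of bile acid genes, 6 lower and none higher, was called. Of 6 tested intestinal markers (median log2 change 1.28) 1 rose, Fabp2 (2.50, no overlap), beside 16.9% of all tested probes called higher. The other 5 were not called (Cdx1 0.28 and Cdx2 2.97 among them). Sums of the 6 were 11.3 to 14.1 in furan livers, against 7.63 to 12.9 in control livers. No stellate and matrix marker of 9 tested (sums 6.71 to 26.4 in furan livers, against 4.76 to 14.6 in control livers, Col1a1 0.33 and Col1a2 0.59) and no macrophage marker of 10 (sums 35.3 to 47.1 in furan livers, against 39.6 to 51.9 in control livers, Cd68 0.18 and Cd163 -0.31) was called. Of 10 endothelial markers 1 fell, Ptprb, also without overlap (log2 change -1.0), beside 16.9% of all tested probes called lower. Endothelial sums were 12.6 to 15.3 in furan livers, against 7.21 to 24.6 in control livers (Pecam1 -0.37 and Stab2 0.42). Of 6 lymphocyte markers none was called (sums 0.36 to 0.49 in furan livers, against 0.28 to 0.54 in control livers). Groups also did not overlap for Cdx1 (0.28), Cd14 (-0.45) and Cdh5 (-0.40), which were not called. Among all tested probes 36.4% did not overlap. Epcam, Cldn7, Sox9, Fabp2, Ptprb, Cd14 and Cdh5 are named after their values were seen. On the hepatocyte marker scale none of these markers fell. Those that rose on it were 6 biliary, 5 intestinal, 4 stellate, 6 macrophage, 1 endothelial and 3 lymphocyte markers. On that scale 13832 of all 20268 tested probes were called higher and 301 lower. With normexp background correction 4 endothelial, 1 macrophage and 1 lymphocyte marker fell, and 2 biliary markers rose. That correction gave 7102 of the 20268 tested probes called lower and 3070 called higher. Control 1, low for Cyp7b1 and Nr0b2, had the lowest endothelial sum, and without it 6 bile acid genes were still called as lower. The part of these cells in the changes was not tested.

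The arrays lay on 2 slides, arrays 1 and 2 of each group on slide 1 and arrays 3 and 4 on slide 2. The 6 genes that fell were lower on both slides, with larger differences on slide 1. Replicate spots were noisier on part of slide 1. Their median coefficient of variation was 12.8% on furan 1, 7.57% on control 1 and 9.38% on control 2. It was 4.45% on furan 2 and from 4.20% to 4.84% on slide 2. The part of this noise in the slide difference was not tested. Slc27a5 changed by -2.18 on slide 1 and -1.19 on slide 2, Amacr by -1.40 and -0.52, and Cyp27a1 by -1.19 and -0.61, each in that slide order. Baat changed by -1.18 and -0.53, Hsd3b7 by -1.17 and -0.39, and Akr1d1 by -0.90 and -0.43. The interaction of furan with slide was not called for any of the 10 (limma, lowest adjusted p = 0.806; 2 of the 10, Slc27a5 and Hsd3b7, at an unadjusted p below 0.05) or for any of the tested probes (0 called, 1236 of them at an unadjusted p below 0.05). Cyp7b1 changed by 0.80 on slide 1 and -0.997 on slide 2, so its direction was not the same on both. Cyp7a1 changed by -0.41 and -0.82, Cyp8b1 by -1.17 and -0.30, and Nr0b2 by -0.37 and 0.29.

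The genes around the pathway were read from lists of known bile acid genes, counting each gene by its brightest tested probe. Of all tested probes 16.9% were called lower and 16.9% higher. All 5 tested uptake transporters, which return bile acids from blood to hepatocytes, fell, with a median log2 change of -1.32. Slc10a1 (NTCP), the main sodium-dependent carrier, had levels of 4.00, 4.03, 4.84 and 4.96 in furan livers, against 5.75, 5.55, 5.63 and 5.46 in control livers, with no overlap (log2 change -1.14 ± 0.24 SE, limma adjusted p = 0.00807). The organic anion transporters Slco1a1 (-1.57), Slco2b1 (-1.52) and Slco1a4 (-1.32) fell further. On the hepatocyte marker scale 3 of the 5 were called lower, where 301 of all 20268 tested probes were. Slc10a1 was not called on it (-0.31, limma adjusted p = 0.153).

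Export genes went both ways, with 6 higher, 2 lower and 3 not called of 11 tested (median log2 change 0.90). Over all tested probes 16.9% were called higher and 16.9% lower. Abcc3 (MRP3), which moves conjugates into the blood, had levels of -3.02, -3.43, -3.43 and -3.50 in furan livers, against -6.41, -6.79, -6.99 and -7.30 in control livers. It was well above background on all furan arrays and on 3 of the 4 control arrays, and rose by 3.53 ± 0.20 SE on the log2 scale (limma adjusted p = 9.47e-05), or by 1.02 with normexp background correction. Abcg2, an efflux pump, rose by 1.66 and Abcc4 (MRP4), a basolateral exporter, by 1.06. Abcb11 (BSEP), the canalicular bile salt pump, fell, with levels of 1.46, 0.91, 2.02 and 1.63 in furan livers, against 2.72, 2.40, 2.73 and 2.13 in control livers (log2 change -0.99 ± 0.24 SE, limma adjusted p = 0.0158). On the hepatocyte marker scale Abcb11 was not called (-0.16, limma adjusted p = 0.493), and Abcc3, Abcg2 and Abcc4 were called higher. So were 13832 of all 20268 tested probes on that scale, with a median change of 0.80 over all of them.

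Among 17 tested receptors and regulators of bile acid synthesis, 6 fell, 1 rose and 10 were not called (median log2 change -0.35). Of all tested probes 16.9% fell and 16.9% rose. With normexp background correction 11 of the 17 fell, where 7102 of all 20268 tested probes fell, against 3423 without it. The bile acid receptor Nr1h4 (FXR) had levels of 3.37, 3.46, 3.52 and 3.67 in furan livers, against 3.83, 3.99, 3.63 and 3.61 in control livers, with a log2 change of -0.26 ± 0.12 SE that was not called (limma adjusted p = 0.136). Its other tested probe had -0.47 (limma adjusted p = 0.0611). Fgfr4, the receptor through which the intestinal hormone FGF15 represses Cyp7a1 in rodents, fell to -2.44 ± 0.15 in furan livers, against -1.51 ± 0.01 in control livers (SD, n = 4 each, limma adjusted p = 0.00086), while its co-receptor Klb was not called (log2 change 0.04, limma adjusted p = 0.885). Hnf4a, a hepatocyte transcription factor that activates Cyp7a1 and Cyp8b1, fell by 0.98. The 1 gene that rose was Dbp, a circadian transcription factor known to activate rat Cyp7a1, with 2.66, 2.74, 2.68 and 1.80 in furan livers, against 1.35, 0.56, -0.02 and 0.33 in control livers (log2 change 1.92 ± 0.32 SE, limma adjusted p = 0.00350). Its other 2 tested probes rose by 1.78 and 1.71. The time of day at which livers were taken is not given in the sources used here, and the part of the clock in the spread of Cyp7a1 was not tested. On the hepatocyte marker scale none of the 17 fell and 7 rose, Nr1h4 (0.57) and Klb (0.87) among them. Hnf4a (-0.15) and Fgfr4 (-0.10) were not called. On that scale 13832 of all 20268 tested probes were called higher, and their median change was 0.80.

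Of 16 tested further enzymes and sterol carriers, 5 fell, 2 rose and 9 were not called (median log2 change -0.18). Among all tested probes 16.9% fell and 16.9% rose. The rises were those of Tspo, a mitochondrial outer membrane protein linked to cholesterol transport (1.65), and Ephx1, the microsomal epoxide hydrolase (1.48). Slc27a2, a very long chain acyl-CoA synthetase that can also activate bile acid precursors, fell by 0.72, and was not called with quantile normalization (-0.30, limma adjusted p = 0.0668). The falls depended on the scaling: with array median scaling 3 of the 16 fell, where 2688 of all 20268 tested probes fell. On the hepatocyte marker scale none fell and 9 rose (median 0.65), where 13832 of all tested probes rose (median 0.80). With no scaling none fell and 8 rose, where 10405 of all tested probes rose. Together with the transporters and regulators, 18 of the 49 surrounding genes fell and 9 rose, beside 16.9% of all tested probes each way. With normexp background correction 25 fell and 9 rose, where 7102 of all 20268 tested probes fell and 3070 rose.

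**Figure D5:**
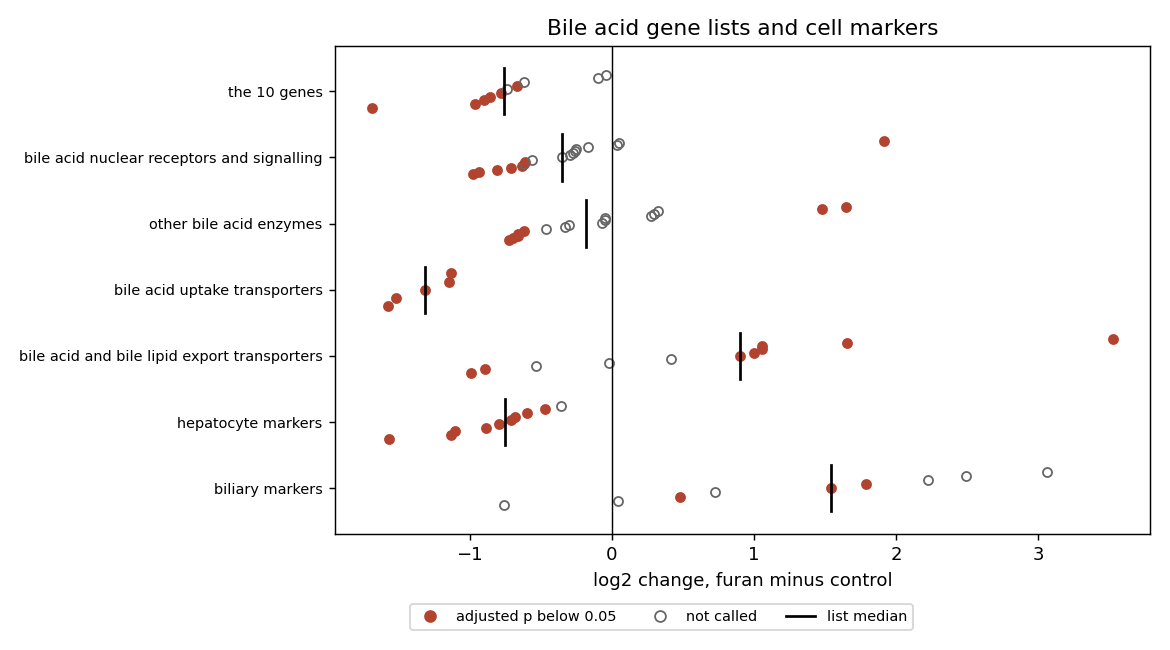
Log2 change, furan minus control, of each tested gene (points) in 7 groups of genes, filled where limma called the change, with the group's median as a vertical bar. All 5 uptake transporters lie below -1, and the export transporters lie on both sides of 0 up to 3.53 for Abcc3. The medians of the 10 bile acid genes (-0.76) and of the hepatocyte markers (-0.75) lie side by side on this scale. With quantile normalization, which gives equal ranks equal values, these medians were -0.72 and -0.12.

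Over the 8 arrays, the genes outside the pathway with levels most like those of Cyp7a1, after each gene was centred on its own mean, were Cited4, Gnptab and Clic2. They lay at root mean square differences of 0.38, 0.39 and 0.42 log2 units, among 13140 named genes compared. For Cyp7b1 they were RT1-N1 (0.21), Slc24a5 (0.25) and Krtap16-5 (0.26). The differences are a large part of the spread of Cyp7a1 itself (SD 0.84 in furan livers and 0.70 in control livers).

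RefSeq promoter sequence was at hand for 7 of the 10 genes and not for Cyp7a1, Cyp7b1 and Akr1d1. The 250 bases before the start site are shown for Cyp27a1 and Slc27a5, which fell, and for Nr0b2, which was not called, to set genes of both kinds side by side (GRCr8 build, 5′ to 3′ on the gene's strand). Capitals mark matches, on either strand, to the nuclear receptor motif AGGTCA, the CAAGGTCA site of the LRH-1 type that overlaps it, CCAAT or TATAAA.
Cyp27a1, chr9:83713282-83713531, plus strand: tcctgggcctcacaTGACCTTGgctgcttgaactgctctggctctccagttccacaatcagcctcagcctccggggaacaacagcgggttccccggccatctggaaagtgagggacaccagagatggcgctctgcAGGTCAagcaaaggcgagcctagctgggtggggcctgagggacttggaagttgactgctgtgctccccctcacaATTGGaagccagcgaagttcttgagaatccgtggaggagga
Slc27a5, chr1:82699336-82699585, minus strand: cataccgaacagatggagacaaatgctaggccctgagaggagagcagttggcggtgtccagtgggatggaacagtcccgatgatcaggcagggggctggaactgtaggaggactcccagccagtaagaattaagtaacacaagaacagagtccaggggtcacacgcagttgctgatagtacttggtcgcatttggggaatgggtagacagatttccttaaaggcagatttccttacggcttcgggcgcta
Nr0b2, chr5:151062910-151063159, plus strand: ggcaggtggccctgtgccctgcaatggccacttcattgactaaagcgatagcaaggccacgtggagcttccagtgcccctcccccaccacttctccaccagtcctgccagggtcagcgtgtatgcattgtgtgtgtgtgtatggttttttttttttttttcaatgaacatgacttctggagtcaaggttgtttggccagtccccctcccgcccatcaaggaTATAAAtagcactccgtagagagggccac
AGGTCA was present in 2 of the 7 promoters, Cyp27a1 and Amacr, against 14.1% of 33469 rat promoter windows of the same length. The LRH-1 type site was in 1 of 7 (Cyp27a1), against 1.33% of windows, CCAAT in 1 of 7 (Cyp27a1), against 34% of windows, and TATAAA in 1 of 7 (Nr0b2), against 12.9% of windows. The direct repeat of AGGTCA with 1 base between was in none of the 7 and in 0.0508% of windows, and its inverted repeat with 1 base between was in none of the 7 and in 0.0269% of windows. The Slc27a5 window, of the gene with the largest fall among the 10, held none of the motifs searched. A match is a description of these letters and not a site shown to be bound.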

How the data were processed

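The authors hybridised 1 array per rat and extracted spot signals with Agilent Feature Extraction 10.7, per the submitters' processing notes. The deposited scanner files give a background-subtracted, detrended processed signal in intensity units. The deposited series table holds the same signal after scaling, with every array's 75th percentile set to 1000. Spots marked as non-uniform or outliers were left out. Log2 signals were taken relative to the 75th percentile of non-control spots and averaged over the spots of a probe, which left 30197 of 30367 probes. A probe was tested where a share of at least 0.5 of its usable spots was well above background on all 4 arrays of a group. The groups were compared with limma 3.58.1 in R 4.3.3 (two-sided, without trend, 20268 probes, threshold 0.05), checked on simulated data. Genes are named through RefSeq transcript, symbol or synonym, otherwise as in the file. Named surrounding genes are the 3 called genes of each list with the largest change, the largest called change in the minority direction, and Nr1h4, Fgfr4, Klb, Slc10a1 and Abcb11. The first 2 markers of each list are given where tested, and for Cyp7a1 and Cyp7b1 the 3 genes nearest in pattern. Genes and lists were chosen with earlier results of these data known. Precision is limited by the number of arrays. Pearson correlations of arrays ran from 0.979 to 0.993 within furan, from 0.980 to 0.992 within control, and from 0.953 to 0.980 between them.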

Additional observations from a re-analysis of the deposited data

Results flagged for a closer look

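Single arrays stood apart from the other 3 of their group in 8 of 60 groups of values examined, where chance gives about 1 in 20. Akr1d1 was 3.31 on control 1, against 2.89 to 2.95 on the other control arrays. The ratio of Cyp8b1 to Cyp27a1 was -0.75 on furan 2, against -1.33 to -1.25 on the other furan arrays. Among surrounding genes, Dbp was 1.80 on furan 4 (2.66 to 2.74 on the others), Klb was -3.17 on control 3 (-2.69 to -2.60 on the others) and Slc27a2 was 7.70 on control 1 (7.34 to 7.37 on the others). Ephx1 was 4.63 on furan 4 (4.94 to 4.98 on the others) and 3.51 on control 1 (3.35 to 3.37 on the others). Abcc3 was -3.02 on furan 1 (-3.50 to -3.43 on the others).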

How the results depend on the processing

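The count of 6 bile acid genes lower and none higher held in 19 of 24 alternatives, was 7 lower without control 3, and was 1 in the other 4, while Slc27a5 was called as lower in all 24. On slide 1 alone or slide 2 alone 1 gene was called, and 3 lower and 3 higher, or 5 lower and 5 higher, of the surrounding genes (main counts 18 and 9; 15 to 20 and 9 to 10 without single arrays), with 2 arrays a group. With arrays scaled to the hepatocyte markers 1 gene was called, and 3 lower and 23 higher surrounding genes. With no scaling it was 1, and 5 and 17. Both were chosen after seeing the data. All tested probes gave 3423 lower and 3429 higher calls, and 7102 lower with normexp (30.2% of calls higher, against 50%; median change -0.19, against -0.03), 2038 higher with array median scaling (43.1% higher), 301 and 13832 on the hepatocyte scale (97.9% higher, median 0.80), 584 and 10405 without scaling (94.7% higher, median 0.56), 207 and 322 on slide 1, 678 and 939 on slide 2, and 2217 to 3403 lower and 2484 to 3370 higher without single arrays.

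Changes that turned positive were, on the hepatocyte scale, Cyp7a1 0.21, Cyp8b1 0.095, Cyp7b1 0.73, Hsd3b7 0.050, Akr1d1 0.16 and Nr0b2 0.79. Without scaling they were Cyp7b1 0.50 and Nr0b2 0.55. Cyp7b1 was 0.80 on slide 1, 0.0010 without furan 4 and 0.27 without control 4, in a range from -0.57 to 0.27 without single arrays. Nr0b2 was 0.14 without furan 1, 0.12 without furan 2, 0.23 without control 2, 0.15 without control 3 (from -0.43 to 0.23 without single arrays), 0.41 without control 2 and furan 1, and 0.29 on slide 2. The cause was not tested. Leaving out single arrays, the ratio difference ran from -0.14 to 0.56 for Cyp7a1 to Cyp27a1 (-0.14 without furan 2), from -0.22 to 0.36 for Cyp8b1 to Cyp27a1 (-0.22 without control 3), from -0.78 to -0.03 for Cyp7a1 to Cyp7b1 and from -1.13 to -0.06 for Cyp8b1 to Cyp7b1. Each gene had 1 probe, so averaging probes gave no other ratio.

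Same-numbered arrays correlated at -0.30, 0.11, 0.28 and 0.04 in their deviations from the group means. Differently numbered arrays ran from -0.416 to 0.523. These correlations cannot show whether rats were handled in numbered pairs. With the replicate block 6 genes were lower and none higher, with 15 and 9 surrounding genes and 2472 and 2638 probes.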
